A study of Mus musculus with 24 samples.

Results

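Deletion of Zeb2 in conventional dendritic cells of type 2 (cDC2) was measured by RNA sequencing of cDC2 sorted from mouse spleen. The comparison takes 6 of the 24 libraries of the series, chosen by their labels: 4 from CD11cCRExZeb2fl/fl mice and 2 from Zeb2fl/fl littermates without Cre. Both groups carry the floxed Zeb2 alleles, so the deletion libraries differ from the controls by the Cre transgene and by what it removes. All mice were C57Bl/6, between 6 and 12 weeks old, and untreated. Cre was driven by CD11c (Itgax) sequences, which are active in dendritic cells and in some other myeloid and lymphoid cells. The sort separated the subsets by surface antibodies that the labels do not list. Control cDC2 held Sirpa at 1546 and 1340 CPM, Cd4 at 301 and 292 CPM and the cDC1 receptor Xcr1 at 3.55 and 6.73 CPM, as the labelled subset would have it. In bulk RNA of this kind, fewer cells of a type and less RNA per cell cannot be told apart. Since nothing in the labels ties a replicate to a mouse of its own, the p-values speak for the scatter among libraries within groups. That scatter was estimated over all 24 libraries of the series and may be technical.

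Zeb2 is a zinc-finger protein that binds paired E-box sequences of the CACCT type and mostly represses transcription. In epithelial tissues it is known for switching off junction genes such as cadherins and claudins, and in myeloid cells it is expressed in monocytes, plasmacytoid dendritic cells and cDC2 and kept low in cDC1. Id2, which blocks E protein transcription factors, is a gene that Zeb2 is known to hold down in dendritic cells. Splenic cDC2 present antigen mainly to CD4 T cells, turn over within days, and include dividing cells, and part of them share genes with monocytes.

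The 6 libraries held 24761733 to 25720836 counts over genes and 14150 to 14260 genes with at least 1 count. Values below are CPM (a gene's counts relative to its library's total, with the libraries scaled by TMM), and a change is the log2 ratio of deletion over control from edgeR's quasi-likelihood model of all 24 libraries. A gene is called when its p-value adjusted over all 13166 tested genes (Benjamini-Hochberg) is under 0.05. Of these genes, 307 (2.33%) rose and 379 (2.88%) fell in cDC2 with the deletion, 5.21% in all. Changes of at least 2-fold were found for 125 higher (0.949%) and 119 lower genes (0.904%). The values of the 4 deletion libraries lay outside those of both controls for 3568 genes (27.1%), and 680 called genes (5.16%) were among them. The median change of all tested genes was 0.01, and 48.7% of them had a negative change. With 2 controls, many calls rest on a single library: 71 genes rose and 71 fell without control replicate 1, and 145 rose and 204 fell without control replicate 2. Of the 686 calls, 111 held in all 13 alternative fits. A called gene named below without a further remark held in all of them, and for the others the adjusted p of the fits that end the call, or its range over them, is given.

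**Figure D1:**
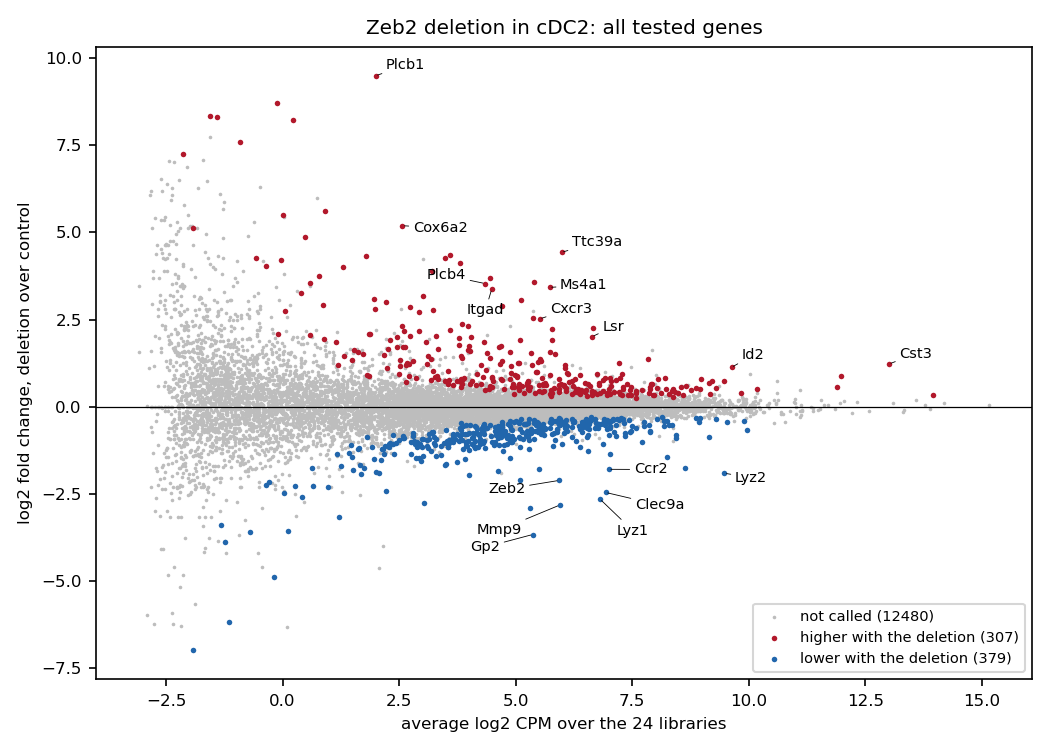
Change of each of the 13166 tested genes in cDC2 with the deletion (y axis, log2 fold change) against its average level (x axis, log2 CPM over the 24 libraries). Red points are the 307 genes called higher, blue points the 379 called lower, grey points the rest. Most called genes of moderate or high level moved by less than 2-fold. Among called genes without overlap, with average log2 CPM of 2 or more, Gp2, Mmp9, Lyz1 and Zeb2 are in the 10 largest falls.

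Zeb2 itself stood at 176 and 132 CPM in the controls and at 38.0, 41.4, 33.0 and 30.7 CPM in the deletion libraries, so the 4 deletion libraries lay below both controls. It fell by 2.11 on the log2 scale (SE 0.27, adjusted p = 5.13e-05). The count covers the whole gene, including exons that Cre leaves in place, so what remains is no measure of undeleted cells. The related repressor Zeb1 stood at 37.6 and 29.2 CPM in the controls and at 37.0 to 50.7 CPM with the deletion and was not called (change 0.38, SE 0.19, adjusted p = 0.284). Of 6 tested Zeb and Snail family repressors and their Ctbp partners, only Zeb2 was called.

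Id2 rose, and no other inhibitor of its family was called. It stood at 188 and 315 CPM in the controls and at 494, 625, 526 and 562 CPM with the deletion, with no overlap (change 1.13, SE 0.16, adjusted p = 1.41e-04). Of 6 tested E protein and Id genes, Tcf3, which encodes the E protein E2A, was the other one called. Tcf3 went from 124 and 102 CPM to 78.8, 76.5, 90.3 and 89.4 CPM (change -0.43, adjusted p = 0.0289). Control cDC2 of the transgene line, the other mouse line of the series, held Tcf3 at a mean of 83.8 CPM, within the deletion range. The Tcf3 call ended without control replicate 1 (adjusted p = 0.5), without deletion replicate 1 (0.0723) or 2 (0.0793), and in a fit of the compared libraries alone (0.0627). Tcf4, an E protein that plasmacytoid dendritic cells require, stood at 64.2 and 58.1 CPM against 51.6 to 59.2 CPM (change -0.15, adjusted p = 0.726).

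Genes of the cell division cycle were the largest coherent group among the lists. Of 28 tested DNA replication genes, 16 fell and none rose, and of 27 mitosis genes, 19 fell and none rose. All 55 had a negative change, with a median of -0.81, beside 48.7% of all tested genes. In 52 of the 55 (94.5%) the deletion libraries did not overlap the controls, beside 27.1% of all genes. The summed level of the mitosis genes was 763 and 814 CPM in the controls and 430, 358, 450 and 398 CPM with the deletion. For the replication genes the sums were 1929 and 1921 CPM against 1151, 1045, 1442 and 1274 CPM. Deletion replicate 2 was lowest and replicate 3 highest in both sums, and every deletion library lay below both controls.

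Among the genes that copy DNA, Tk1, the thymidine kinase that supplies nucleotides in S phase, stood at 37.6 and 30.3 CPM in the controls and at 13.9, 11.1, 17.8 and 13.6 CPM with the deletion. It fell by 1.27 (SE 0.18, adjusted p = 1.17e-04). E2f1, a transcription factor that starts S phase, stood at 49.9 and 43.3 CPM against 19.3, 21.6, 27.6 and 27.3 CPM and fell by 0.96 (SE 0.14, adjusted p = 2.38e-04). Mcm3, a subunit of the replicative helicase, stood at 210 and 219 CPM against 110, 104, 148 and 119 CPM and fell by 0.83 (SE 0.15, adjusted p = 0.00114). In each of these genes the controls lay at about the same level and the deletion libraries below them. Of the other helicase subunits, Mcm2, Mcm5, Mcm6 and Mcm7 were also called lower. Without control replicate 1 none of these 4 was called (adjusted p = 0.199, 0.0501, 0.219 and 0.161), and without control replicate 2 Mcm2, Mcm6 and Mcm7 were not (0.118, 0.0971 and 0.0512). Leaving out deletion replicate 2 or 4 also ended the calls of Mcm2 (0.0843 and 0.0632) and Mcm6 (0.075 and 0.0518), and leaving out deletion replicate 1 that of Mcm2 (0.0764).

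Among the genes that separate chromosomes, Bub1b, a spindle checkpoint kinase, stood at 54.8 and 53.5 CPM in the controls and at 25.6, 19.1, 23.3 and 26.2 CPM with the deletion. It fell by 1.20 (SE 0.20, adjusted p = 6.86e-04). Ube2c, an enzyme that marks mitotic cyclins for destruction, stood at 29.0 and 32.3 CPM against 15.3, 11.5, 17.5 and 14.8 CPM and fell by 1.05 (SE 0.19, adjusted p = 0.00127). Both genes were lower in every deletion library than in either control. Ccna2, the cyclin of S phase and early mitosis, fell by 1.14, Cdc20, the activator of the anaphase complex, by 1.10, and Nek2, a centrosome kinase, by 1.11. These 8 genes held their calls in all alternatives. Without control replicate 1, 12 of the 55 genes were called lower, without control replicate 2, 16, and without deletion replicate 2, 23. Mki67, a widely used marker of dividing cells, stood at 24.9 and 20.5 CPM against 15.2, 14.4, 11.9 and 11.8 CPM and was not called (change -0.77, adjusted p = 0.189).

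**Figure D2:**
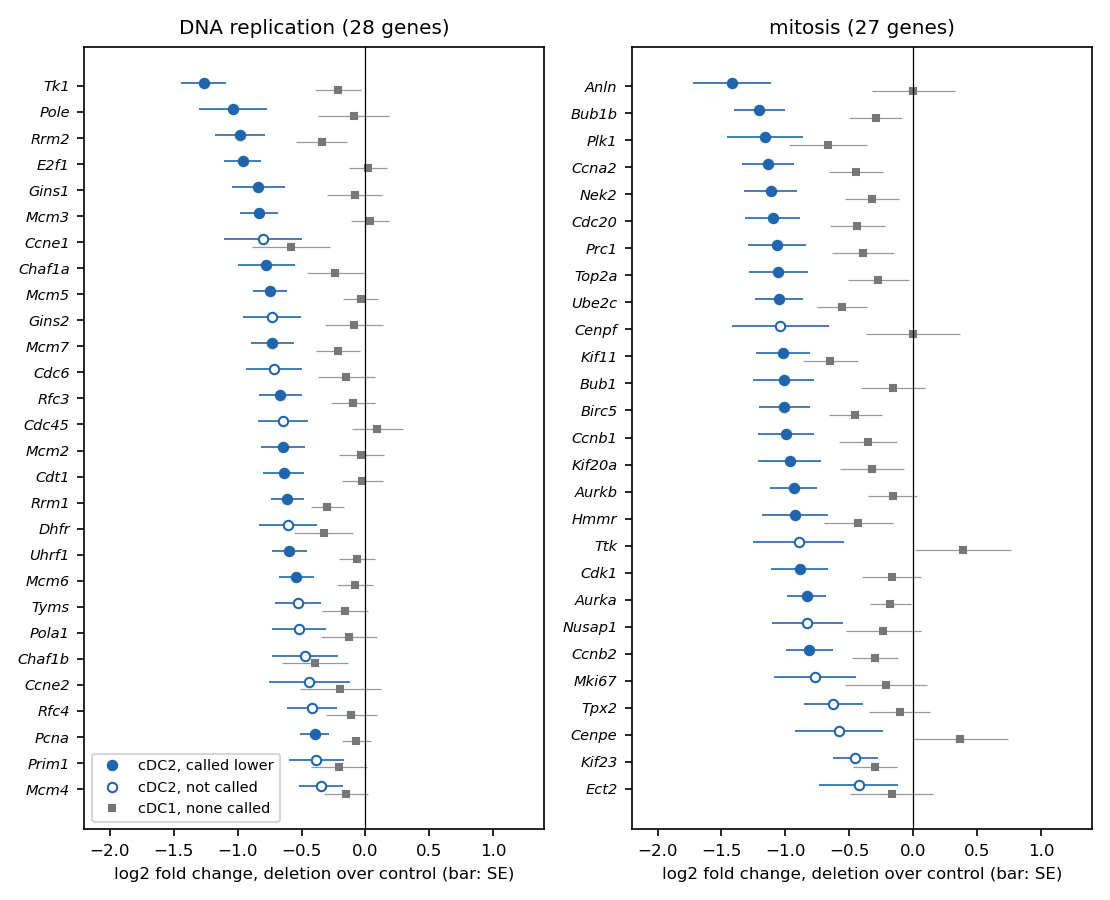
Change with the deletion (x axis, log2 fold change with its SE as a bar) of the 28 DNA replication and 27 mitosis genes tested. Blue circles are cDC2 (filled where called lower: 16 and 19 genes), grey squares the same genes in cDC1 of the same line; every blue circle lies left of 0, while the cDC1 values centre nearer to 0.

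In cDC1 of the same line the 55 genes had a median change of -0.18, 48 of them were negative and none was called. The difference of the change between cDC2 and cDC1 was negative for all 55 genes and called for 3, Mcm3, Tk1 and E2f1, beside 1.08% of all tested genes. For E2f1 and Tk1 the call of the difference was lost without cDC2 control replicate 1 (adjusted p = 0.221 for E2f1 and 0.334 for Tk1) and without either cDC1 control (0.0546 and 0.115 for E2f1, 0.146 and 0.149 for Tk1). A fit of the compared libraries alone also ended both (0.0623 and 0.0959), and for Tk1 so did 6 further alternatives (0.0566 to 0.0855). For Mcm3 the alternatives of the difference were not computed. In cDC2 of the transgene line, where Cre is meant to switch on extra Zeb2, the same 55 genes had a median change of 0.10. Of the 55, 38 were positive and none was called. Zeb2 itself was not called higher there (change 0.56, adjusted p = 0.618 in the edgeR model).

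Regulators and families outside the lists, looked up after the replication and mitosis values had been seen, held further lower calls. Ccnd3, a cyclin that drives entry into the cycle, stood at 257 and 176 CPM against 102, 108, 107 and 112 CPM (change -1.01, adjusted p = 5.63e-04; 0.085 without control replicate 1). Its partner kinase Cdk4 stood at 145 and 135 CPM against 87.2, 83.8, 105 and 93.0 CPM and fell by 0.60 (adjusted p = 3.18e-04). Foxm1, a transcription factor of mitotic genes, fell by 1.17 (adjusted p = 0.00855; 0.172 without control replicate 1). All 8 E2f family members tested had a negative change and 2 were called, all 19 centromere protein (Cenp) genes had a negative change and 2 were called, and 5 of 7 Cdca genes fell. Of 31 kinesin (Kif) genes, 7 fell, 1 rose, and 9 had a positive change. The one that rose was Kif1b (change 0.66, adjusted p = 0.0297; 0.0707 to 0.253 without either control or deletion replicate 1 or 2).

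Some genes of glycolysis were also lower, and a link to the fall of the division genes was not tested. Of 24 glycolysis genes, 5 fell (20.8%, beside 5.21% of all tested genes called) and none rose: Hk3, Tpi1, Gapdh, Pkm and Ldha. Hk3, a hexokinase, stood at 13.8 and 10.6 CPM against 4.88, 5.98, 3.64 and 5.84 CPM and fell by 1.26 (SE 0.24, adjusted p = 0.00246; 0.107 without control replicate 1). Tpi1, triose phosphate isomerase, stood at 117 and 93.0 CPM against 67.4, 64.7, 76.2 and 76.8 CPM and fell by 0.56 (adjusted p = 0.00155; 0.157 without control replicate 1). Ldha, Pkm and Gapdh fell by 0.42, 0.33 and 0.32, and their calls also ended without control replicate 1 (adjusted p = 0.101, 0.233 and 0.267). A fit of the compared libraries alone ended those of Pkm (0.0755) and Gapdh (0.0876). The summed glycolysis level was 3442 and 3194 CPM against 2815 to 2975 CPM. Control cDC2 of the transgene line held Hk3 at a mean of 5.73 CPM, within the deletion range, and Tpi1 at 82.7 CPM, above it.

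Of 9 genes of serine and one-carbon metabolism, looked up after their values had been seen, 5 fell and 1 rose. Shmt2, the mitochondrial serine hydroxymethyltransferase, stood at 52.4 and 46.6 CPM against 29.5, 25.2, 37.5 and 27.4 CPM and fell by 0.72 (adjusted p = 0.00777; 0.16 without control replicate 1). Psat1, an enzyme of serine synthesis, fell by 0.92 (adjusted p = 0.00201; 0.0501 without control replicate 1). Phgdh, the first enzyme of the same route, rose by 0.86 (adjusted p = 0.0173; 0.148 and 0.147 without control replicate 1 or 2, and 0.0525 without deletion replicate 2). Fbl, which methylates ribosomal RNA in the nucleolus, stood at 99.8 and 94.8 CPM against 70.3, 59.3, 72.7 and 69.1 CPM and fell by 0.52 (adjusted p = 2.46e-04). None of 82 cytosolic ribosomal protein genes was called, and 3 of 77 mitochondrial ones fell. Of 33 respiratory chain subunits 1 rose (3.03%, beside 5.21% of all tested genes called), Cox6a2, and it is described with the neighbours of the Cre driver.

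A part of the genes shared with monocytes fell. Of 23 tested monocyte genes, 7 fell, 1 rose and 15 did not pass the test, 11 had a positive change, and the list's median change was -0.07. Lyz1 and Lyz2 encode lysozyme, which digests bacterial walls, and lie 5.5 kb apart on chromosome 10. Lyz2 stood at 2394 and 1931 CPM in the controls and at 692, 442, 468 and 712 CPM with the deletion (change -1.90, SE 0.17, adjusted p = 1.93e-07). Lyz1 stood at 420 and 395 CPM against 79.4, 52.7, 57.5 and 70.6 CPM (change -2.65, SE 0.17, adjusted p = 1.35e-09). The pair is nearly identical in sequence, so the split of reads between them is uncertain, but both fell in every deletion library.

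Cx3cr1, the receptor for fractalkine, stood at 110 and 74.0 CPM in the controls and at 20.0, 15.9, 22.98 and 27.1 CPM with the deletion (change -2.10, SE 0.26, adjusted p = 2.91e-05). Ccr2, the receptor that draws monocytes out of bone marrow, stood at 156 and 136 CPM against 41.9, 26.9, 58.0 and 42.4 CPM (change -1.79, SE 0.40, adjusted p = 0.00885). Without control replicate 1 Ccr2 was not called (adjusted p = 0.112). Csf1r, through which M-CSF acts, stood at 982 and 751 CPM against 418, 528, 450 and 464 CPM (change -0.90, SE 0.15, adjusted p = 7.32e-04; 0.0749 without control replicate 1). The groups did not overlap for any of these 3 receptors.

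Cd300e, an activating receptor of monocytes, stood at 23.5 and 25.9 CPM against 8.84 to 13.2 CPM and fell by 1.09 (adjusted p = 0.016; 0.106 and 0.112 without control replicate 1 or 2). Fcgr4, an activating Fc receptor, fell by 0.92 (adjusted p = 0.0459), a call lost without any single one of the 6 libraries (adjusted p = 0.0514 to 0.531). The only gene of the list that rose was Chil3, a chitinase-like protein, at a mean of 2.84 CPM in control cDC2 of the transgene line. It had no count in the controls here and 1.16, 1.39, 4.64 and 0.85 CPM with the deletion (207 counts). Its call (adjusted p = 0.0294) was lost without either control (0.256 and 0.161), without deletion replicate 3 (0.0527) and with the replicate block (0.0509).

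Ly6c2 and Fcgr1, low in these cells and picked after their values were seen, were not called. Ly6c2 stood at 0.22 and 1.65 CPM in the controls and at 0.70 to 4.51 CPM with the deletion, and Fcgr1 at 1.68 and 2.15 CPM against 2.09 to 3.71 CPM. The summed level of the monocyte list was 9468 and 10540 CPM in the controls and 6467 to 9058 CPM with the deletion, and Nr4a1, an early response gene, supplied more than any other member (mean 5256 and 5411 CPM). Mmp9, a gelatinase that was the only called member of the neutrophil list (1 of 9), stood at 76.0 and 86.9 CPM against 7.52, 17.4, 16.1 and 5.30 CPM. It fell by 2.82 (SE 0.41, adjusted p = 1.70e-04). S100a8, an abundant neutrophil gene, stood at 0.11 and 2.00 CPM against 0.62 to 2.32 CPM.

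Other myeloid genes belong to no list but were among the 10 largest falls. Those 10 are of called genes without overlap, at an average log2 CPM of at least 2. Adamdec1, a protease of macrophages and dendritic cells, stood at 13.1 and 21.7 CPM against 2.56, 0.91, 3.40 and 3.33 CPM and fell by 2.77 (SE 0.52, adjusted p = 0.0023; 0.0512 without control replicate 2). Dab2, an endocytic adaptor, stood at 9.18 and 11.1 CPM against 1.90, 1.31, 3.17 and 1.20 CPM and fell by 2.42 (SE 0.42, adjusted p = 0.00109). Myof, a membrane repair protein, fell by 1.94 (SE 0.26, adjusted p = 6.93e-05). Control cDC1 of this line held Adamdec1 and Dab2 at means of 0.48 and 0.37 CPM, below the deleted cDC2.

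**Figure D3:**
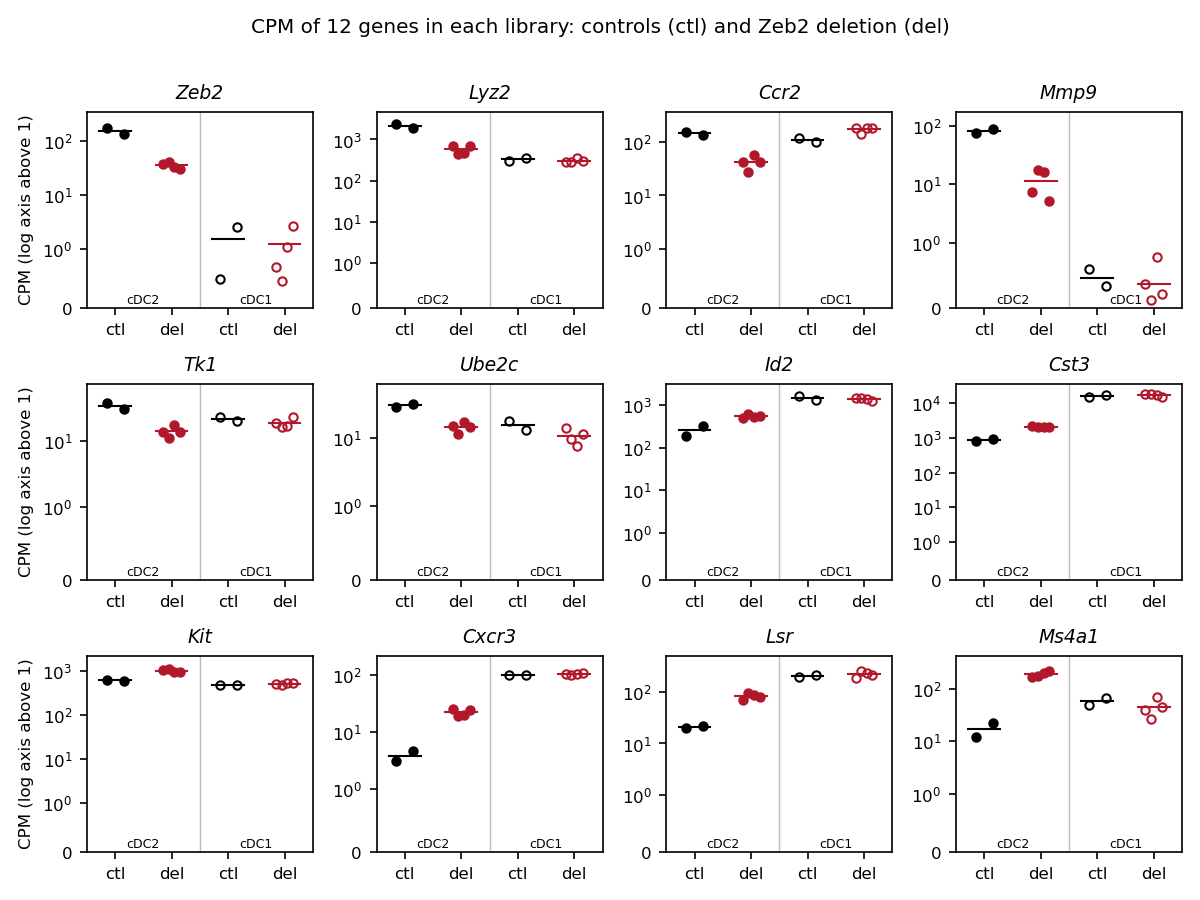
CPM of 12 genes in each library (y axis, logarithmic above 1 CPM): controls in black and deletion in red, cDC2 as filled and cDC1 as open circles, with the group mean as a line. In cDC2 the 4 deletion libraries lie below both controls for Zeb2, Lyz2, Ccr2, Mmp9, Tk1 and Ube2c and above both for the other 6 genes.

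Of 24 tested cDC2 identity genes, 3 were called (12.5%, beside 5.21% of all tested genes). Clec12a, Csf1r and Cx3cr1 fell, none rose, and the median change of the list was -0.03. Clec12a, an inhibitory lectin, stood at 101 and 88.4 CPM against 56.1, 46.7, 58.5 and 54.6 CPM and fell by 0.81 (SE 0.09, adjusted p = 8.33e-06). Control cDC1 of this line held more Clec12a, 201 CPM, so it is not restricted to cDC2. Sirpa stood at 1321, 1539, 1281 and 1442 CPM with the deletion, so 2 of these libraries lay between the controls and 2 below both (change -0.05, SE 0.36). Cd4 stood at 238 to 272 CPM, below both controls but with a change of -0.21 (SE 0.19, adjusted p = 0.628), and Cd209a, a lectin of monocyte-like cDC2, stood at 494 and 540 CPM against 320, 254, 297 and 294 CPM without a call (change -0.83, SE 0.48, adjusted p = 0.389). The summed level of the list was 6062 and 6642 CPM in the controls and 5843 to 6513 CPM with the deletion.

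None of 16 tested genes of the Notch-dependent, Esam-high part of cDC2 was called. Esam stood at 79.5 and 64.6 CPM against 60.5 to 84.8 CPM (change -0.01, SE 0.23), and Notch2 at 342 and 266 CPM against 233 to 320 CPM. None of 37 transcription factors of the dendritic cell lineage was called either, and their median change was 0.09. Irf4, a factor that cDC2 use, stood at 179 and 263 CPM against 253, 515, 496 and 355 CPM, a change of 0.88 with an SE of 0.36 (adjusted p = 0.186). Irf8, which cDC1 require, stood at 111 and 94.9 CPM against 67.0 to 91.7 CPM (change -0.44, SE 0.18, adjusted p = 0.181), and Batf3, another cDC1 factor, at 44.9 and 30.5 CPM against 45.5 to 53.8 CPM (change 0.43, SE 0.15, adjusted p = 0.099). Klf4 and Zbtb46 had changes of 0.17 and 0.09 and were not called. A p above the threshold does not show that these genes kept their level.

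The cDC1 identity list moved in both directions. Of 23 tested genes 5 rose and 3 fell, and the median change was 0.21. The 5 that rose were Tlr3, Id2, Snx22, Hepacam2 and Itgad. Itgad, described with the neighbours of the Cre driver, was lower in control cDC1 of this line (mean 2.00 CPM) than in control cDC2 (6.42 CPM). Snx22, a sorting nexin, stood at 2.54 and 2.96 CPM in the controls and at 13.6, 12.4, 15.1 and 10.2 CPM with the deletion (change 2.22, SE 0.20, adjusted p = 1.54e-07), and control cDC1 held 111 CPM. Hepacam2, an adhesion molecule, stood at 2.31 and 1.46 CPM against 4.85 to 6.62 CPM (change 1.58, adjusted p = 0.00408; 0.0932 without control replicate 2). Tlr3, the receptor for double-stranded RNA, stood at 3.73 and 7.57 CPM against 7.97 to 11.5 CPM (change 0.78, adjusted p = 0.0436). The Tlr3 call ended without control replicate 1 (0.653), without deletion replicate 1, 2 or 3 (0.0751, 0.109 and 0.0577), and with library totals, the replicate block or the compared libraries alone (0.0568 to 0.149).

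The 3 genes that fell are among the best known of cDC1. Clec9a, the receptor for actin of dead cells, stood at 17.6 and 11.9 CPM against 2.95, 1.27, 3.21 and 3.33 CPM (change -2.45, SE 0.24, adjusted p = 1.16e-06). Cadm1, an adhesion molecule, stood at 27.6 and 30.8 CPM against 6.40, 9.34, 13.1 and 14.3 CPM (change -1.44, SE 0.21, adjusted p = 1.68e-04). Cd36, a scavenger receptor, stood at 17.5 and 15.2 CPM against 4.85, 3.29, 5.65 and 5.65 CPM (change -1.75, SE 0.19, adjusted p = 3.78e-06). Control cDC1 held these at means of 267, 663 and 878 CPM. Control cDC2 of the transgene line held Clec9a at a mean of 6.14, Cadm1 at 13.95 and Cd36 at 7.25 CPM. These means lay below both controls here, for Cadm1 within the deletion range and for Clec9a and Cd36 above it. Xcr1, which is restricted to cDC1, stood at 4.26 to 6.02 CPM with the deletion beside 3.55 and 6.73 CPM in the controls, and so inside the range of the controls. Cd8a, a cDC1 marker in spleen, stood at 7.50 and 6.50 CPM against 2.30 to 4.72 CPM and was not called (change -0.98, adjusted p = 0.313).

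The control subsets of the transgene line, which share no library with this comparison, gave a wider view. Of 487 tested genes at least 4-fold higher in those control cDC1 than in control cDC2, 50 rose (10.3%) and 24 fell (4.93%) in cDC2 with the deletion. Of 930 genes at least 4-fold higher in control cDC2, 24 rose (2.58%) and 33 fell (3.55%). Of the remaining 11749 genes, 233 rose (1.98%) and 322 fell (2.74%), so most changes lay outside both sets. The median change was 0.19 in the cDC1 set, 0.05 in the cDC2 set and 0.00 in the rest. A gene could pass the filter on low counts through cDC1 alone. Such genes, near the floor in control cDC2, can be called higher but hardly lower. The 50 against 24 and the median of the cDC1 set are therefore not read as a preference for rising.

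**Figure D4:**
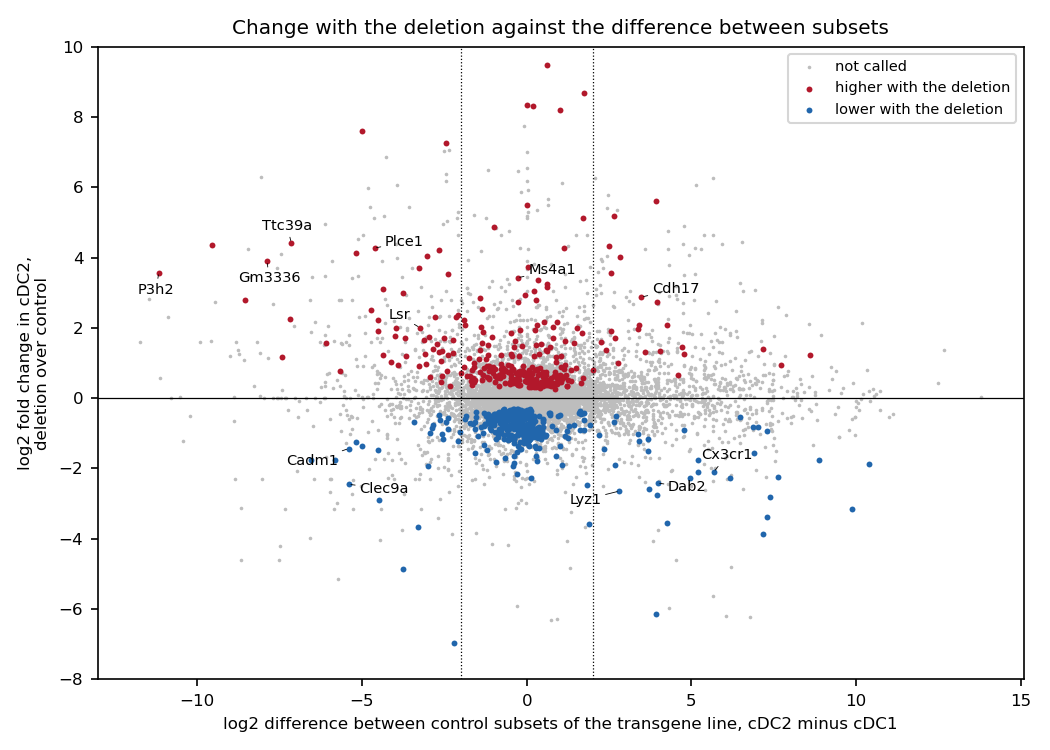
Change of each tested gene in cDC2 with the deletion (y axis, log2 fold change) against its difference between the control subsets of the transgene line (x axis, log2, cDC2 minus cDC1); dotted lines mark 4-fold. Left of the dotted lines red points (50 genes called higher) outnumber blue ones (24 called lower), and most called genes lie between the lines. Genes near the floor in control cDC2 can hardly be called lower, which favours red points on the left.

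The 10 largest rises of called genes at an average log2 CPM of at least 2, without overlap, included several genes low in control cDC2. These had more RNA in control cDC1, and 4 of them are described here. Clec4b2, Plce1 and Fcrla, described elsewhere, are also of this kind. The rule that chose them asks for a minimum average level over all 24 libraries, which such genes can reach through their level in cDC1, so that shared feature is no finding. Ttc39a, a tetratricopeptide protein, stood at 0.78 and 0.62 CPM in the controls and at 8.72, 24.8, 11.6 and 15.8 CPM with the deletion (change 4.43, SE 0.41, adjusted p = 3.40e-07), beside 167 CPM in control cDC1. Gm3336 stood at 0 and 0.19 CPM against 1.71, 1.03, 1.35 and 1.82 CPM (5 counts against 152, change 3.90, adjusted p = 5.63e-04). P3h2, which modifies collagen, had 4 counts in the controls and 98 with the deletion (change 3.57, adjusted p = 0.00191; 0.0514 without control replicate 2 and 0.0573 in a fit of the compared libraries alone). Igf2r, a receptor that sorts lysosomal enzymes, had 2 counts against 76, a ratio with a 95% counting interval of 5.22 to 164 (adjusted p = 0.0152; 0.242 and 0.0593 without control replicate 1 or 2). These 4 genes stayed far below their level in cDC1, at 33.7 CPM for Igf2r and 122 CPM for P3h2.

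Genes shared by both cDC subsets included growth factor receptors, and 4 of 20 rose while none fell. Flt3, the receptor for the main growth factor of dendritic cells, stood at 374 and 376 CPM against 508, 602, 562 and 508 CPM (change 0.54, SE 0.10, adjusted p = 0.00245; 0.0609 without control replicate 1). Kit, the stem cell factor receptor, stood at 629 and 613 CPM against 1063, 1136, 956 and 983 CPM (change 0.74, SE 0.14, adjusted p = 0.00322; 0.0564 without control replicate 1). Csf2rb2, a receptor chain for interleukin 3, stood at 66.1 and 60.9 CPM against 88.9 to 114 CPM (change 0.60, adjusted p = 0.0118; 0.103 and 0.134 without control replicate 1 or 2). All 4 deletion libraries lay above both controls in each gene. Csf2rb, the receptor chain shared with GM-CSF and highly similar to Csf2rb2, was not called (change 0.27, adjusted p = 0.365), so the split between them is uncertain.

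The fourth was Cst3, cystatin C, an inhibitor of lysosomal proteases. It stood at 810 and 937 CPM in the controls and at 2135, 2058, 2013 and 1985 CPM with the deletion (change 1.23, SE 0.10, adjusted p = 2.12e-08). Control cDC1 held a mean of 16270 CPM, so the deleted cDC2 stayed well below them. Of 24 tested cytokine and growth factor receptors, 4 rose and 1 fell, the fourth riser being Il10rb (change 0.41, adjusted p = 0.0297). The Il10rb call ended without either control or deletion replicate 2 or 4 and in a fit of the compared libraries alone (adjusted p = 0.0705 to 0.419). Of 24 lysosomal proteases and cystatins, Cst3 rose and Cst7 fell (change -1.15, adjusted p = 0.0182). Cst7, cystatin F, lost its call without control replicate 1 (0.219) or 2 (0.0723) and without deletion replicate 2 (0.0601).

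Among genes that control cell death, 3 of 20 rose and none fell, all of them survival factors. Mcl1 stood at 816 and 912 CPM against 1024, 1235, 1144 and 1153 CPM (change 0.40, SE 0.10, adjusted p = 0.0179). Its call ended without control replicate 1 (0.329) or 2 (0.0508), without deletion replicate 2 (0.0525) and in a fit of the compared libraries alone (0.053). Bcl2a1a stood at 39.4 and 49.3 CPM against 61.6 to 76.2 CPM (change 0.65, adjusted p = 0.00395; 0.179 without control replicate 1), and Bcl2a1d rose by 0.42. The Bcl2a1d call ended without either control or deletion replicate 1, 2 or 4, with library totals, with no filter on low counts and in a fit of the compared libraries alone (adjusted p = 0.0551 to 0.535). Bcl2a1a and Bcl2a1d are near-identical copies, so their separate counts are uncertain.

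Chemokine receptors changed one by one. Of 17 tested, Cxcr3 rose, Ccr2 and Cx3cr1 fell and 14 were not called. Cxcr3, the receptor for interferon-induced chemokines, stood at 3.02 and 4.61 CPM against 24.8, 18.9, 19.6 and 24.6 CPM (change 2.52, SE 0.22, adjusted p = 1.54e-07), beside 99.0 CPM in control cDC1. Ccr7, the receptor that guides dendritic cells to lymph nodes, stood at 1407 and 1538 CPM against 1112, 2956, 2100 and 1571 CPM and spread widely (change 0.39, SE 0.45). Of 16 chemokines 2 rose. Ccl22 stood at 8.92 and 15.8 CPM against 18.4 to 40.7 CPM (adjusted p = 0.0432; 0.0638 to 0.498 without control replicate 1 or 2 or deletion replicate 2, 3 or 4). Ccl24 had 9 counts in the controls and 293 with the deletion (adjusted p = 0.0332; 0.0501 to 0.221 without control replicate 1 or 2 or deletion replicate 2 or 3, and 0.067 with the replicate block).

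Lectins and Fc receptors also moved both ways. Of 28 C-type lectins 4 fell, Clec9a, Clec12a, Clec1b and Cd209b, and 1 rose, Clec4b2. Clec1b, the podoplanin receptor, stood at 3.92 and 5.65 CPM against 1.05 to 1.51 CPM and fell by 1.90 (SE 0.29, adjusted p = 2.86e-04). Cd209b fell by 1.56 (adjusted p = 0.0127; 0.0501 and 0.164 without control replicate 1 or 2). Clec4b2 had 3 counts in the controls and 130 with the deletion, a ratio with a 95% counting interval of 7.45 to 109 (adjusted p = 0.00818; 0.0599 and 0.107 without control replicate 1 or 2), and its family holds near-identical genes, so its count is uncertain. Klrc1, a lectin receptor of NK cells on no list and picked after its values were seen, stood at 0.41 and 0.27 CPM against 5.58, 5.15, 4.68 and 6.89 CPM (change 4.02, SE 0.56, adjusted p = 1.19e-04). Control cDC2 of the transgene line, also without Cre, held Klrc1 at a mean of 6.56 CPM, within the range of these deletion libraries.

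Of 11 Fc receptor genes 2 rose, Fcrla and Fcer2a, and 2 fell, Fcgr4 and Fcrl5. Fcrla, an intracellular Fc receptor-like protein of B cells, stood at 0.86 and 2.00 CPM against 17.2, 13.4, 25.7 and 17.8 CPM (change 3.70, SE 0.39, adjusted p = 3.20e-06). Fcer2a, the low-affinity IgE receptor CD23, stood at 4.44 and 4.69 CPM against 29.2, 25.2, 40.5 and 26.5 CPM (change 2.73, SE 0.51, adjusted p = 0.00215; 0.0675 without control replicate 1). Fcrl5 fell by 2.59 (adjusted p = 0.0328; 0.0653 to 0.299 without control replicate 1 or 2 or deletion replicate 1, 2 or 4). Ms4a1, which encodes the B cell surface protein CD20, stood at 12.1 and 22.5 CPM against 164, 175, 193 and 212 CPM (change 3.43, SE 0.57, adjusted p = 6.34e-04; 0.0501 without control replicate 1).

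Ms4a1 was the only called gene of 11 tested on the B cell list, whose summed level was 229 and 234 CPM in the controls and 298 to 393 CPM with the deletion. Of these sums Ms4a1 alone supplied 12.1 and 22.5 CPM in the controls and 164 to 212 CPM with the deletion. The other members together were lower in every deletion library than in either control. The genes of the B cell receptor's signalling chains did not rise with Ms4a1. Cd79a stood at 3.43 and 6.46 CPM against 0.59 to 7.62 CPM, and Cd79b at 40.8 and 40.4 CPM against 20.7 to 34.7 CPM. Deletion replicate 3 was highest for Cd79a and also for Fcrla and Fcer2a, but not for Ms4a1. Whether other cells in the sort had a part in the rise of Fcrla and Fcer2a was not tested.

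Each of the other marker lists held 0 to 2 calls, while 5.21% of all tested genes were called. Of 12 T cell genes 1 rose, Cd8b1, from 1.34 and 1.73 CPM to 4.19 to 7.56 CPM (adjusted p = 0.0157, and 0.233 or 0.0904 when control replicate 1 or 2 is left out). Cd3e stood at 0.11 and 1.69 CPM against 0 to 1.86 CPM. None of 11 NK cell genes was called and Ncr1 and Klra8 had no count in any of the 6 libraries; the summed level of that list was 223 and 289 CPM against 356 to 449 CPM. None of 7 erythroid and platelet genes was called, and 4 globin genes had no count. Of 17 red pulp macrophage genes Slc40a1 and Itgad rose. Slc40a1, the iron exporter ferroportin, stood at 20.4 and 49.4 CPM against 34.0, 136, 213 and 148 CPM, so the groups overlapped (change 1.93, adjusted p = 0.0298), and its call ended without control replicate 1 or deletion replicate 2, 3 or 4, with the replicate block and in a fit of the compared libraries alone (adjusted p = 0.0543 to 0.424). Adgre1 and Spic, 2 defining genes of those macrophages, had changes of -0.06 and 0.30. Of 19 plasmacytoid dendritic cell genes Cox6a2 and Fcrla rose, and Siglech stood at 5.86 and 3.27 CPM against 1.28 to 2.56 CPM without a call.

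Antigen presentation genes were called at a share near the 5.21% of all tested genes. Of 18 MHC class II presentation genes 1 rose (5.56%), H2-Ob, a subunit of the DO protein that limits peptide loading. H2-Ob stood at 316 and 358 CPM against 462, 421, 486 and 481 CPM (change 0.46, SE 0.09, adjusted p = 0.00241; 0.144 without control replicate 1). Of 19 MHC class I and cross-presentation genes 1 rose (5.26%), B2m, the light chain of class I. It went from 3196 and 4301 CPM to 5951, 5866, 5128 and 5232 CPM (change 0.56, adjusted p = 0.00754, and 0.314 without control replicate 1). None of 20 cytokines, 12 cytosolic nucleic acid sensors or 25 early response and heat shock genes was called. Of 20 costimulation and maturation genes Ccl22 alone was called (5%), and 18 of the 20 had a positive change (median 0.39, beside 0.36 in cDC1).

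Of 22 Toll-like receptor and adaptor genes Tlr3 and Tlr4 rose (9.09%, beside 5.21% of all tested genes called). Tlr4, the receptor for bacterial lipopolysaccharide, stood at 12.4 and 12.2 CPM against 29.2, 23.8, 26.0 and 33.4 CPM (change 1.19, SE 0.22, adjusted p = 0.00163; 0.0501 without control replicate 1). Of 9 NADPH oxidase genes 2 rose. Ncf1, a cytosolic subunit of the oxidase, stood at 251 and 254 CPM against 386, 534, 398 and 439 CPM (change 0.80, SE 0.13, adjusted p = 4.69e-04). Hvcn1, the proton channel that supports the oxidase, stood at 77.9 and 73.3 CPM against 109 to 129 CPM (adjusted p = 0.0307; 0.203 and 0.192 without control replicate 1 or 2, 0.0742 and 0.0628 without deletion replicate 2 or 4). Of 30 interferon-stimulated genes 2 rose (6.67%), Oasl2 (change 1.27, adjusted p = 0.019) and Ly6a (change 2.54, adjusted p = 0.00851). Oasl2 lost its call without control replicate 1 or 2 or deletion replicate 4 (0.264, 0.0927 and 0.0508), and Ly6a without control replicate 1 (0.219).

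Junction and epithelial genes, the classical targets of ZEB proteins in other tissues, held 3 risers and 1 faller among 22 tested. Epcam, an epithelial adhesion molecule, stood at 13.2 and 11.3 CPM against 50.2, 56.0, 38.1 and 48.6 CPM (change 1.97, SE 0.35, adjusted p = 0.00132). Cldn1, a tight junction claudin, stood at 4.59 and 2.50 CPM against 13.1, 23.2, 18.7 and 15.8 CPM (change 2.32, SE 0.35, adjusted p = 2.08e-04). F11r, the junction molecule JAM-A, rose by 1.30 (adjusted p = 0.0469; 0.0588 to 0.34 without control replicate 1 or 2 or deletion replicate 2, 3 or 4). Vim, the mesenchymal filament protein vimentin, stood at 246 and 179 CPM against 136, 126, 132 and 137 CPM (change -0.68, adjusted p = 0.0148; 0.441 without control replicate 1). Of the 34 genes of the list 12 were too low to test, among them Cldn3, Cldn4, Esrp1, Grhl2 and Ovol2.

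Lsr, a receptor of tricellular junctions on none of the lists, had one of the 5 strongest differences from cDC1. It stood at 19.9 and 21.6 CPM in the controls and at 70.7, 94.4, 87.9 and 81.0 CPM with the deletion (change 2.01, SE 0.15, adjusted p = 1.72e-08). Spint2, an inhibitor of epithelial proteases picked after its values were seen, stood at 120 and 126 CPM against 201, 259, 240 and 232 CPM (change 0.93, SE 0.15, adjusted p = 5.09e-04). Both genes stood higher in every deletion library than in either control.

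ZEB proteins are known to bind the E-box CACCTG, which reads CAGGTG on the other strand, so the 250 bases before the RefSeq start of each gene were searched for both. The windows of Lsr, Spint2 and Epcam are printed because they hold several matches and belong to genes that rose, and that of Id2 because it holds none. They are RefSeq sequences of GRCm38.p6, 5′ to 3′ along the gene, with CACCTG or CAGGTG in capitals. They lie at chr7:30973470-30973719 (minus strand, Lsr), chr7:29281978-29282227 (minus, Spint2), chr17:87635729-87635978 (plus, Epcam) and chr12:25096093-25096342 (minus, Id2).
Lsr: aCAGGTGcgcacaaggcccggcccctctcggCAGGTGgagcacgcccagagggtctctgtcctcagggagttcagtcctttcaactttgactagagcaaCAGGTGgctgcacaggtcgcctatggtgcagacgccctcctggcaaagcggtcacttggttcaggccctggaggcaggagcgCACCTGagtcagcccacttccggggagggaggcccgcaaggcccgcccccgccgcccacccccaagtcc
Spint2: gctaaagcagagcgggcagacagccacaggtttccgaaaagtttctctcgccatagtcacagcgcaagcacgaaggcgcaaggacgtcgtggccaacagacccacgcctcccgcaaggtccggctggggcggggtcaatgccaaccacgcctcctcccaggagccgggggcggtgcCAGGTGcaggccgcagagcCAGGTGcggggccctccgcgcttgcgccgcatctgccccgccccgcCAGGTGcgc
Epcam: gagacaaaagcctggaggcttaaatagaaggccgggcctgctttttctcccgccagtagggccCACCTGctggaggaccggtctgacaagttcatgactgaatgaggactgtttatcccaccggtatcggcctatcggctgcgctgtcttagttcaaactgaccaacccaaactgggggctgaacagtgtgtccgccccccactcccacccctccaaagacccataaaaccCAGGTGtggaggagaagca
Id2: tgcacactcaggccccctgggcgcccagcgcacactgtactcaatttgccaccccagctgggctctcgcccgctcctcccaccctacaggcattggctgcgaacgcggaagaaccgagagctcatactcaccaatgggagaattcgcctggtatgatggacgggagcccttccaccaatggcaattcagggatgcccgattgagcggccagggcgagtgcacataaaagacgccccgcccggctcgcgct

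The first base of the matches lies 249, 219, 151 and 69 bases before the start in Lsr, 74, 55 and 9 in Spint2, and 187 and 19 in Epcam. Of 12737 windows of 10057 tested genes, 15.6% held CACCTG on either strand, and of all 32851 RefSeq windows 17.2%. The share was 23.3% (74 of 318) for genes called higher and 10.9% (40 of 368) for genes called lower, and 31.2% and 9.71% for those changed at least 2-fold (128 and 103 windows). Windows with at least 2 matches made up 1.81% of all tested, 4.40% of the higher and 0.272% of the lower ones. The E-box CAGCTG, searched the same way, gave 11.9% for all tested, 11.9% for the higher and 9.24% for the lower genes, and CACGTG gave 8.20, 8.49 and 9.78%. Among genes at least 2-fold higher the share with CAGCTG was also above that of all tested genes, at 18.8%, so a higher share was not restricted to CACCTG there. Median GC content was 59.6, 59.2 and 58.8% in the same order. Matches of different motifs may overlap in part. Windows of a gene with several starts were counted separately, and a match is a run of letters, not a measured binding site.

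Adhesion, signalling and lipid genes held a few further changes. Of 27 adhesion molecules and tetraspanins 3 rose and 2 fell (18.5%, beside 5.21% of all tested genes called). For the cytoskeleton and migration list below the share called was 3.23%. Cd84, a SLAM family receptor, stood at 5.23 and 5.69 CPM against 19.4, 30.7, 26.4 and 21.7 CPM (change 2.17, SE 0.30, adjusted p = 1.21e-04). Cd81, a tetraspanin, stood at 220 and 237 CPM against 106, 125, 130 and 138 CPM (change -0.87, SE 0.13, adjusted p = 1.60e-04). Slamf6 rose by 0.80 (adjusted p = 0.0313), a call that ended without either control or deletion replicate 2, 3 or 4 and with the replicate block (0.0546 to 0.2). Of 31 cytoskeleton and migration genes 1 rose, Actn1, alpha-actinin, from 32.6 and 41.2 CPM to 55.1 to 80.3 CPM (adjusted p = 0.0114; 0.273 without control replicate 1).

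Of 29 TGF-beta receptor and Smad genes 2 fell (6.9%, near the 5.21% of all tested genes called), both receptors of BMP9. Acvrl1, the receptor ALK1, stood at 32.1 and 26.5 CPM against 10.4, 13.2, 16.0 and 13.1 CPM (change -1.15, SE 0.16, adjusted p = 1.36e-04). Eng, endoglin, its co-receptor, stood at 7.65 and 7.38 CPM against 1.90 to 3.87 CPM (change -1.35, adjusted p = 0.0179; 0.16 and 0.0858 without control replicate 1 or 2, 0.0603 without deletion replicate 2). Of 19 prostaglandin and leukotriene genes 1 rose and 2 fell. Tbxas1, among those that fell, stood at 12.7 and 11.3 CPM against 3.37 to 8.59 CPM, with a mean of 6.16 CPM in control cDC2 of the transgene line. Cysltr1, a receptor for cysteinyl leukotrienes, stood at 5.79 and 12.0 CPM against 26.8, 33.1, 31.0 and 28.7 CPM (change 1.75, SE 0.29, adjusted p = 6.04e-04; 0.0521 without control replicate 1). Lta4h, which makes leukotriene B4, fell by 0.38 (adjusted p = 0.0253), and Tbxas1, thromboxane synthase, by 1.01 (adjusted p = 0.0102), both lost without control replicate 1 (0.093 and 0.158). The Lta4h call also ended without control replicate 2 or deletion replicate 1 or 2 (0.218, 0.054 and 0.0721), and both ended in a fit of the compared libraries alone (0.0669 and 0.0649).

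Of 28 genes of cholesterol synthesis and lipid handling 1 rose and 2 fell, Apoe against Cd36 and Sqle. Apoe, apolipoprotein E, stood at 165 and 158 CPM against 284, 427, 423 and 414 CPM (change 1.26, adjusted p = 0.0117; 0.146 and 0.107 without control replicate 1 or 2). Sqle, squalene epoxidase, fell by 0.69 (adjusted p = 0.0491), and its call ended without either control or deletion replicate 1, 2 or 4, with DESeq2 size factors and in a fit of the compared libraries alone (0.0543 to 0.4). Of 16 genes of dead-cell uptake, Clec9a, Cd36 and Tgm2 fell and none rose. Tgm2, transglutaminase 2, stood at 827 and 824 CPM against 442, 522, 464 and 448 CPM (change -0.82, SE 0.23, adjusted p = 0.0389), and each of the 6 fits that leave out a library and DESeq2's Wald test ended that call (0.0529 to 0.238). Of 19 genes on the paired receptor list 16 had a negative and 3 a positive change (median -0.30), and Cd300e was called lower. Cd47, the ligand of Sirpa on that list, rose by 0.38 (adjusted p = 0.00517, 0.129 without control replicate 1 and 0.0652 in a fit of the compared libraries alone).

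Some of the largest rises lie next to each other in the genome and were also seen where Cre was present without the deletion. Itgad, an integrin chain, lies 23.3 kb from Itgax, the gene whose sequences drive Cre, on chromosome 7, and Cox6a2, a muscle-type subunit of cytochrome oxidase, overlaps its end by 70 bases. Itgad stood at 6.20 and 6.65 CPM in the controls and at 53.3, 70.0, 72.2 and 70.8 CPM with the deletion (change 3.37, SE 0.23, adjusted p = 3.49e-09). Cox6a2 stood at 0.34 and 0.58 CPM against 15.2, 23.3, 16.1 and 12.8 CPM (change 5.19, SE 0.50, adjusted p = 6.96e-07). In the overlap reads of the pair cannot be assigned without strand, which the sources used here do not give.

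The other pair lies on chromosome 2. Plcb4, a phospholipase C, stood at 2.76 and 3.19 CPM against 31.9, 32.6, 37.6 and 36.2 CPM (change 3.54, SE 0.17, adjusted p = 4.56e-12). Plcb1, a related gene 183.3 kb away and picked after its values were seen, had 1 count in the controls and 13.4, 22.6, 13.8 and 18.8 CPM with the deletion (adjusted p = 1.72e-08). These 4 genes were also called higher in transgene-line cDC2 that carry Cre, against the controls of that line, with changes of 2.80 for Itgad, 4.17 for Cox6a2, 3.86 for Plcb4 and 6.72 for Plcb1. They were the only genes called higher in both lines, 1.30% of the 307 here and 26.7% of the 15 there. In cDC1 with the deletion, Itgad rose by 2.28 and Plcb4 by 0.88, and with Zfp831 (chosen after its value was seen) they were the 3 genes called higher there (0.0228% of those tested). None was called lower there, with 633 genes of either direction at an unadjusted p under 0.05 in edgeR.

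The transgene line is meant to add Zeb2 and has its own controls, so genes that moved oppositely in the 2 lines were listed. Zeb2 stood at a mean of 103.8 CPM in cDC2 controls of that line and 152.6 CPM with the transgene. It was not called there (change 0.56, adjusted p = 0.618 in the edgeR model), so a gain of Zeb2 RNA was not established. Of the 28 genes lower in cDC2 with the transgene, 19 (67.9%) rose in cDC2 with the deletion, which is 6.19% of the 307 genes that rose. They included Lsr (change -1.48 with the transgene), Snx22 (-1.97), H2-Ob (-0.51), Cd38 (-0.93) and Plce1. Cd38, an enzyme that breaks down NAD and was picked after its values were seen, stood at 25.6 and 38.0 CPM against 59.5, 63.7, 69.8 and 84.1 CPM with the deletion (change 1.12, SE 0.17, adjusted p = 2.65e-04). Cdh17, a cadherin also picked afterwards, stood at 13.5 and 21.3 CPM against 97.7, 175, 115 and 124 CPM (change 2.88, SE 0.49, adjusted p = 7.64e-04; 0.0521 without control replicate 1) and fell by 4.72 with the transgene. Plce1, a phospholipase C, had 13 counts in the controls and 498 with the deletion (change 4.27, SE 0.73, adjusted p = 0.00121), and no count in the 4 transgene libraries.

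One gene moved in the reverse order. Gp2, a receptor for bacterial fimbriae, stood at 5.60 and 5.34 CPM in the controls and at 0.19, 0.91, 0.27 and 0.35 CPM with the deletion (change -3.66, SE 0.49, adjusted p = 6.93e-05), and rose by 2.26 with the transgene (adjusted p = 0.00413). Itga8, an integrin chain, stood at 10.97 and 6.27 CPM against 2.06, 1.23, 1.32 and 0.04 CPM (change -2.89, SE 0.45, adjusted p = 2.91e-04) and was not called with the transgene (0.56, adjusted p = 0.809). No gene was lower in both lines.

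The change in cDC2 was compared with that in cDC1 of the same mouse line by the interaction term of the model. It was called for 142 genes (1.08%), 77 with a more positive and 65 with a more negative change in cDC2, and 133 of them were also called in cDC2 with the same sign. The 5 smallest p on the higher side belonged to Plcb4, Lsr, Snx22, Ttc39a and Cst3, and on the lower side to Lyz1, Lyz2, Clec9a, Chtf18 and Cd36. Chtf18, which helps load the replication clamp, stood at 13.7 and 12.4 CPM against 4.65, 5.66, 4.53 and 5.34 CPM in cDC2 (change -1.37, SE 0.18, adjusted p = 4.90e-05). In cDC1 its change was 0.27 (adjusted p = 0.996), and the difference was -1.64 (adjusted p = 0.00213). The count of differences fell to 21 without cDC2 control replicate 1, to 51 and 61 without cDC1 control replicate 1 or 2 and to 90 without deletion replicate 1 of cDC1.

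**Figure D5:**
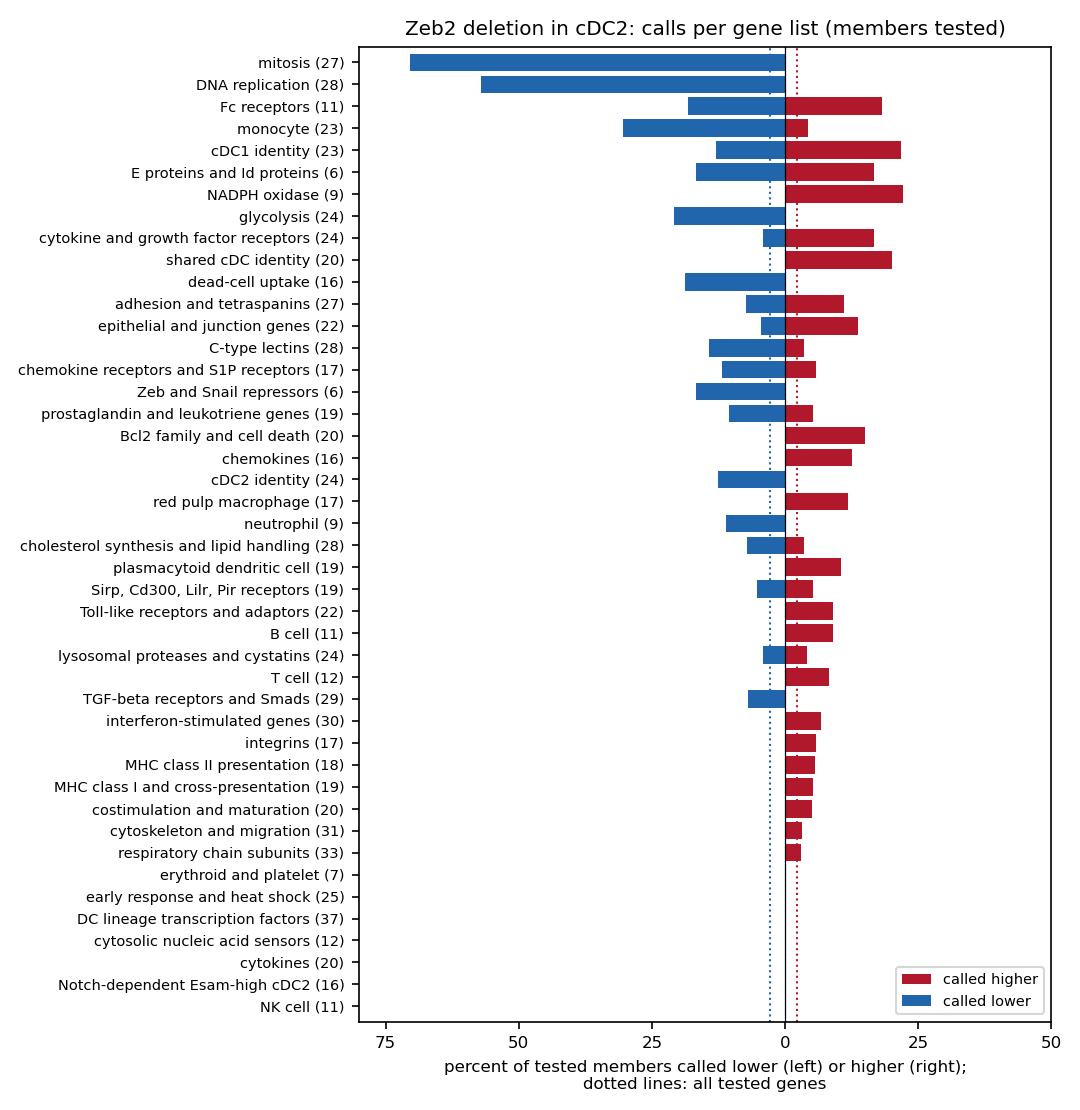
Share of the tested members of each of the 44 gene lists (number tested in parentheses) that were called lower (blue, left) or higher (red, right) in cDC2 with the deletion; dotted lines mark the shares over all tested genes, 2.88% lower and 2.33% higher. The mitosis (70.4%) and DNA replication (57.1%) lists stand out on the left, and 7 lists at the bottom hold no call.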

How the data were processed

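RNA input was 4 ng for each library, amplified by SMART-Seq v4 and read as 75 bp single reads, per the labels' protocols. Per the submitters' processing notes, reads were trimmed with Trimmomatic 0.35 and aligned with TopHat2 2.1.0 to mm10. The deposited files hold whole-number counts per gene symbol made by the authors, while counting program, annotation and strandedness were not given in the sources used here. Lines for reads in no gene were left out (11.95 to 15.68% of counted reads in no feature).

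The tests used edgeR 4.0.16 under R 4.3.3: filterByExpr (minimum count 10, minimum total 15) kept 13166 of 24421 genes, TMM factors ran from 0.9245 to 1.074, and 1 quasi-likelihood fit covered the 24 libraries with a mean for each of 8 groups, after a test on simulated counts. Counting intervals (95%) cover counting error only. Gene positions and the promoter windows are from RefSeq GRCm38.p6, the assembly of mm10.

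The members and the 44 lists were chosen with earlier results of these data known. Named genes were Zeb2, Zeb1 and Id2, up to 2 called members per list and direction (by smallest p), those with the 10 highest and 10 lowest changes among called genes whose groups do not overlap (average log2 CPM 2 or more), and 5 per direction for the difference from cDC1. Other list members were named after their values were seen. Alternatives were DESeq2 1.42.0 or its size factors, library totals, other filters, the 6 libraries alone, a replicate block, and leaving out each library. Replicate numbers were not taken as pairs: same-numbered control and deletion libraries of cDC2 deviated with r of -0.0074 and -0.0203, and not every pair of cDC2 and cDC1 libraries exceeded 0.1 (0.0566 to 0.132 for deletion, 0.00293 for controls).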

Additional observations from a re-analysis of the deposited data

Results flagged for a closer look

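Among the 78 genes named by rule, the 4 deletion libraries were searched for one that stands apart by Dixon's criterion, which chance meets in about 1 in 20 groups. It was met by 3 genes: Apoe, with deletion replicate 1 low at 284.3 CPM, Chil3, with replicate 3 high at 4.642 CPM, and Itgad, with replicate 1 low at 53.34 CPM. For all 3 the remaining deletion libraries still lay above both controls.

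For 35 of the named genes the change with the deletion differed between cDC2 and cDC1, by the interaction term of the edgeR model. The difference, cDC2 minus cDC1 on the log2 scale, was positive for 20. It was 2.66 for Plcb4, 1.87 for Lsr, 2.24 for Snx22, 4.39 for Ttc39a, 1.16 for Cst3, 2.46 for Cxcr3 and 3.56 for Fcrla, which held in every alternative. It was 1.21 for Id2, 3.78 for Ms4a1, 3.82 for Gm3336, 2.27 for Cldn1, 3.62 for P3h2, 4.46 for Plce1, 1.77 for Cysltr1, 4.79 for Clec4b2, 1.28 for Tlr4, 4.51 for Igf2r, 0.51 for H2-Ob and 0.74 for Bcl2a1a, which were lost in at least 1. For Chil3, whose controls had no count, the fitted 13.51 depends on the prior count and is no bound.

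The difference was negative for 15 genes. It was -2.50 for Lyz1, -1.79 for Lyz2, -2.30 for Clec9a, -1.64 for Chtf18 and -1.64 for Cd36, which held in every alternative. It was -0.74 for Clec12a, -3.34 for Gp2, -1.22 for Csf1r, -1.17 for Acvrl1, -1.16 for Vim, -2.82 for Itga8, -0.98 for E2f1, -1.65 for Myof, -2.43 for Ccr2 and -1.05 for Tk1, which were lost in at least 1.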

How the results depend on the processing

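The 307 genes called higher became 71 to 291 and the 379 called lower 71 to 382 over the 6 libraries left out in turn, with the lowest counts without control replicate 1. The 142 genes whose change differed from cDC1 became 21 to 161 over 12 libraries, and the 35 replication and mitosis genes called lower became 12 to 37. DESeq2's Wald test called 467 genes higher and 336 differences. Scaling by library totals called 244 higher and 457 lower, and a fit of the compared libraries alone 320 and 273. Zeb2 fell by 1.89 to 2.30 in all fits. Of the 78 named genes, 37 kept their side of the threshold and direction in every alternative, and no value reversed.

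With the replicate number as a block, 309 genes were called higher, 415 lower and 140 different from cDC1, 40 replication and mitosis genes fell, and Zeb2 changed by -2.13. Same-numbered cDC2 control and deletion libraries did not deviate together (r = -0.0074 and -0.0203). Deletion libraries of cDC2 and cDC1 with the same number correlated weakly (r = 0.0823, 0.132, 0.0566 and 0.0991), and 4 of 4 matched best with their own number, a hint from the data and not the design. With 2 controls, 575 of the 686 calls end when one of them is left out.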
